A study of Mus musculus with 6 samples.

Results

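Of 4114 Gli3 binding sites listed for the embryonic mouse cortex, 440 lay at one-way coding promoters and were poor in CpG at their centre. They were chosen by position and sequence, not by the strength of binding. A site was included if it was on chromosomes 1 to 19, its midpoint was within 2 kb of the transcription start site (TSS) of a protein-coding transcript, and no gene on the opposite strand started within 2 kb of the midpoint. The last condition was a ratio of observed to expected CpG below 0.6 in the 1000 bp around the midpoint, where expected CpG is the product of the C and G counts divided by the length. The other 645 sites at one-way coding promoters had a ratio of 0.6 or more and are called CpG-rich sites here. A further 435 sites lay where genes start on both strands, and 2508 of the 4028 sites on these chromosomes were over 2 kb from every protein-coding TSS.

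The sites came from chromatin immunoprecipitation and sequencing (ChIP-seq) with a Gli3 antibody on dissected cerebral cortices of wild-type embryos at embryonic day 15. There were 3 Gli3 libraries and 3 input DNA libraries, which the authors combined into 1 list of reproducible peaks. The cortex was taken whole, so a site may have come from any of its cell types. The list holds positions without counts or heights, so the depth is unknown, no error between embryos can be given, and all tests compare stretches of DNA with each other.

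Gli3 is a zinc finger transcription factor that ends the Sonic hedgehog (Shh) pathway. Without Shh it is cut to a repressor, and in the dorsal forebrain this repressor form prevails and restrains ventral and glial fates. GLI factors recognize a C-rich core, GACCACCCA, on either strand. Most mammalian promoters of widely used genes lie in CpG islands, stretches in which CpG has not been lost to methylation and decay, while CpG-poor promoters more often belong to genes of restricted expression.

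The sequences of 2 Shh pathway promoters and of Ski are shown as examples in which the site centre and the TSS differed in CpG. Each pair below gives 150 bases at the centre of the Gli3 site and the 150 bases just before the TSS, read along the gene from the mm10 genome, with every CpG in capitals.

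Gli1 site centre, chr10:127340512-127340661, minus strand: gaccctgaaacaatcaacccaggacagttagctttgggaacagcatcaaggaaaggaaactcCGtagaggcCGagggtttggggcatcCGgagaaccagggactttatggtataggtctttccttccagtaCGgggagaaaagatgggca
Gli1 before the TSS, chr10:127339960-127340109, minus strand: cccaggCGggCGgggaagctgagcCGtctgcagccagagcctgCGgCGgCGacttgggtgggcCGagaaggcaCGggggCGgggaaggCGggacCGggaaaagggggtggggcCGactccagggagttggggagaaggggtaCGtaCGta
Evc2 site centre, chr5:37339113-37339262, plus strand: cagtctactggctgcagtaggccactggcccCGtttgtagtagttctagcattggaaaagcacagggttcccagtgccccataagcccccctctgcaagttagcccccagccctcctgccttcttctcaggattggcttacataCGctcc
Evc2 before the TSS, chr5:37338349-37338498, plus strand: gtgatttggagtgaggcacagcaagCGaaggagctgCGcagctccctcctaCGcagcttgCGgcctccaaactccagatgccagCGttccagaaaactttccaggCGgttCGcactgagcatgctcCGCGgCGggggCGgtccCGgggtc
Ski site centre, chr4:155224022-155224171, minus strand: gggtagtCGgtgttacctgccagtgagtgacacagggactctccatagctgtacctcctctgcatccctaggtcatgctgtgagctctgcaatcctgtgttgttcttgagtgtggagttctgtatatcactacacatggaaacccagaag
Ski before the TSS, chr4:155222593-155222742, minus strand: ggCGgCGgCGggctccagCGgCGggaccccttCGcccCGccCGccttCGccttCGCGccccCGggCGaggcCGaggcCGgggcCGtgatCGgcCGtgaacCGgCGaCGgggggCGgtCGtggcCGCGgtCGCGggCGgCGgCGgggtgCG

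The Gli1 window held 4 CpG at the site centre and 14 before the TSS, which was an internal one, 2015 bp after the first TSS of the gene. For Evc2, which acts at the base of the primary cilium in Shh signaling, the counts were 2 and 12. For Ski, a repressor of TGF-beta signaling that was picked after its values were seen, they were 1 and 31. In the 1000 bp around the TSS the CpG ratio was 0.545 for Gli1 and 0.461 for Evc2, both under the threshold for CpG-rich sequence. It was 1.05 for Ski, which was above the threshold. The 3 genes were not chosen to stand for all sites. Counted the same way, the stretch before the TSS held more CpG at 309 of the 440 sites (70.2%), the site centre held more at 97 (22.0%) and the counts were equal at 34. Id3 was among those that went the other way, with 13 CpG at the site centre and 2 before the TSS.

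Over all 440 sites the medians differed in the same direction, which is a description because low CpG at the midpoint chose the sites. The median CpG ratio at the site midpoint was 0.383, and at the TSS of the same genes it was 0.570. At 197 of the 440 sites (44.8%) the 1000 bp around the TSS reached 0.6, so that the gene started in CpG-rich sequence although the centre of the Gli3 site did not lie in it. The other 243 sites (55.2%), among them those at Gli1 and Evc2, had a CpG-poor start. The site itself often reached CpG-rich sequence: 368 of 440 sites (83.6%) held at least 1 window of 200 bp with a GC content of 50% or more and a CpG ratio of 0.6 or more, here called an island-like window. Such a window was present in 632 of 645 CpG-rich sites (97.98%) and in 227 of 880 flanks (25.8%), which are regions of the site's own length, on both sides of it and 1 site length away. Only 72 of the 440 sites held none.

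**Figure D1:**
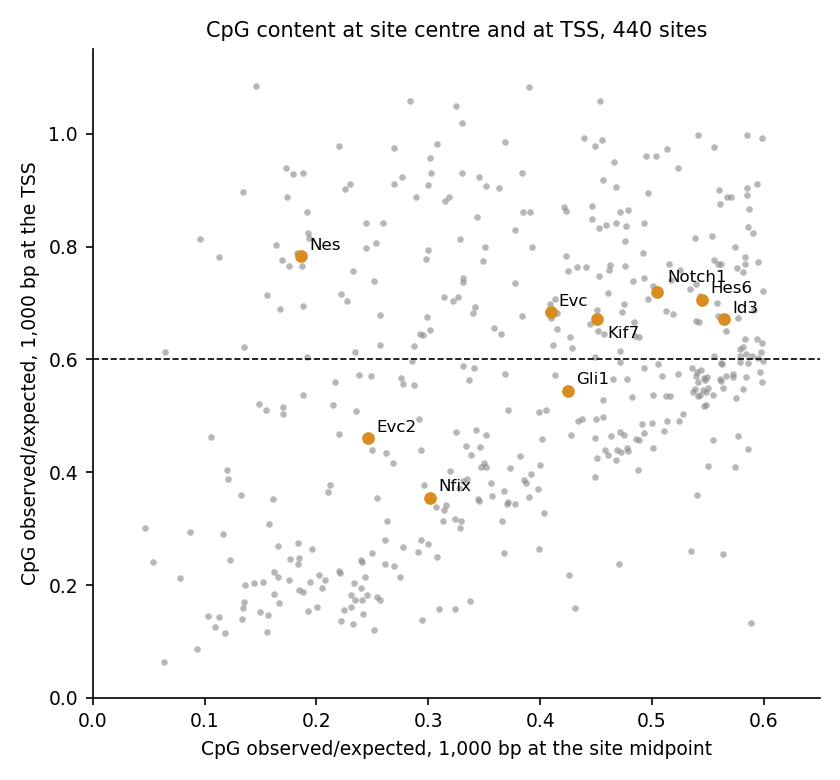
CpG observed/expected in 1,000 bp at the site midpoint (x axis) and in 1,000 bp at the TSS (y axis) for the 440 sites, each a point. The dashed line marks 0.6, with 197 sites at or above it, and the orange points name Shh pathway and progenitor genes, of which Nes had the lowest value at the midpoint (0.187) and the highest at the TSS (0.783).

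The threshold cut through a continuous range. Just inside it were Nuf2 (0.5987), Sp5 (0.5991) and Mcm10 (0.5991), and just outside it Fgf11 (0.6004), Id2 (0.6006) and Hlf (0.6011).

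The CpG-poor sites were less centred on the TSS than the CpG-rich sites. The midpoint was within 500 bp of the TSS at 176 of 440 CpG-poor sites (40%, 95% Wilson interval 35.5 to 44.6) and at 504 of 645 CpG-rich sites (78.1%, 74.8 to 81.2). The odds ratio was 0.187, given without a test. The odds ratio was 0.421 with CpG taken over the whole site and 0.293 with a TSS within 1 kb. The median distance was 637 bp against 242 bp. This comparison is tied to the choice of the sites, because CpG is densest at many starts and a midpoint away from the start is more often CpG-poor. Even so, most of the sites reached the start. The TSS was inside 371 of 440 CpG-poor sites (84.3%) and 605 of 645 CpG-rich sites (93.8%, odds ratio 0.355, also without a test). That difference was smaller with CpG taken over the whole site (odds ratio 0.68) and turned with a TSS within 1 kb (1.05).

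The 2 kinds of CpG-poor site lay differently around the TSS. Where the start was CpG-rich, the midpoint was within 500 bp of it at 28 of 197 sites (14.2%), and the sites stood to both sides, 79 upstream and 118 downstream. Where the start was CpG-poor, it was within 500 bp at 148 of 243 sites (60.9%). These shares are given without a test, since windows that overlap share their CpG. Midpoints lay downstream of the TSS at 245 of 440 CpG-poor sites (55.7%) and 386 of 645 CpG-rich sites (59.8%). This difference did not pass the test (two-sided Fisher's exact test, adjusted exact p = 0.339 over 9 comparisons). It did with a CpG window of 500 bp (odds ratio 0.733, exact p = 0.0129) and with a TSS within 1 kb (0.733, exact p = 0.0302), both unadjusted. By annotation 236 of the 440 midpoints were in introns, 112 were intergenic, 51 in UTRs, 22 in coding exons and 19 in exons of noncoding transcripts.

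**Figure D2:**
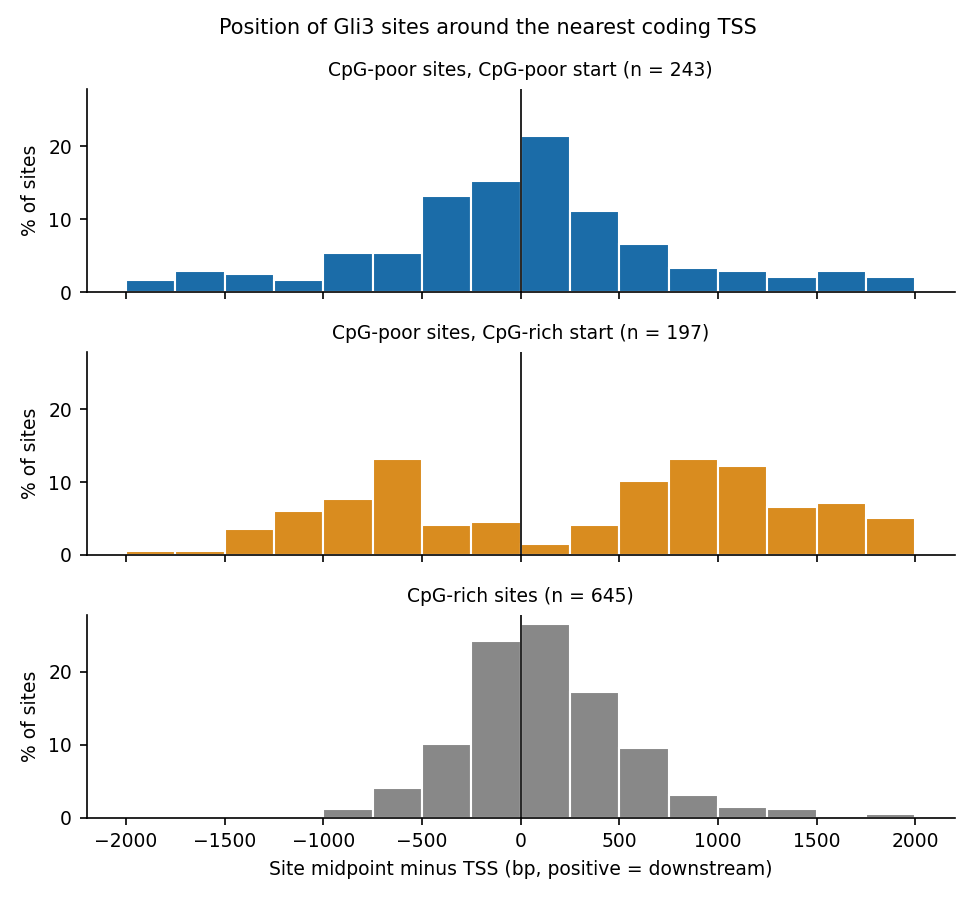
Share of sites (y axis, %) by the distance of the site midpoint from the nearest coding TSS (x axis, bp, in bins of 250 bp, positive downstream). CpG-poor sites with a CpG-poor start (243) and CpG-rich sites (645) peak at the TSS, while CpG-poor sites with a CpG-rich start (197) stand to both sides of it.

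The CpG-poor sites were also wider. Their median width was 2448 bp, against 2000 bp for CpG-rich sites, and 280 of 440 (63.6%, 59.0 to 68.0) were 2 kb or wider, against 323 of 645 (50.1%, 46.2 to 53.9). The odds ratio was 1.74 (two-sided Fisher's exact test, adjusted exact p = 2.25e-05), and 3.15 with CpG taken over the whole site. In that setting the width of a site enters the CpG ratio that chose it. Among sites over 2 kb from every coding TSS the share was 1147 of 2508 (45.7%, odds ratio 2.08, adjusted exact p = 1.33e-11 over 3 comparisons). Within the CpG-poor sites, 145 of 197 with a CpG-rich start were this wide (73.6%), against 135 of 243 with a CpG-poor start (55.6%, adjusted exact p = 0.000247 over 10 comparisons). This split was made after the values were seen. Midpoints also lay farther from a CpG-rich start, at a median of 846 bp against 371 bp, and most sites contained the TSS. How far the width follows from that distance was not tested. The 3 widest sites were at Hpca (9314 bp), which encodes the neuronal calcium sensor hippocalcin, at Cdk2ap1 (9257 bp) and at the cyclin gene Ccnd1 (7030 bp). The 3 narrowest were at Hyal1 (347 bp), a hyaluronidase, at Mical2 (456 bp) and at Prex1 (491 bp).

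The nearest TSS was more often an internal one. At 140 of 440 CpG-poor sites (31.8%, 27.6 to 36.3) it lay over 500 bp from the first TSS of its gene, against 108 of 645 CpG-rich sites (16.7%, 14.1 to 19.8; odds ratio 2.32, two-sided Fisher's exact test, adjusted exact p = 5.11e-08). The share was 109 of 243 in sites with a CpG-poor start (44.9%) and 31 of 197 in sites with a CpG-rich start (15.7%, adjusted exact p = 1.63e-10 between them). Sites and starts were divided by CpG here, and the share of internal starts among all CpG-poor coding starts was not counted. How far these differences follow from CpG content alone was not tested. Examples are Nfix, a nuclear factor I gene of radial glia, whose site lay at a start 26948 bp after the first, and Smad3, a signal transducer of TGF-beta, with a start 46025 bp after the first. Cux2, a gene of upper layer neurons, had one 47758 bp after the first. Another listed site lay within 50 kb of 135 CpG-poor sites (30.7%) and of 177 CpG-rich sites (27.4%), which did not pass the test (adjusted exact p = 0.412), but did at a CpG threshold of 0.5 (odds ratio 1.36, unadjusted exact p = 0.0376).

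A few genes were nearest to several of the sites. Lrrc8d, a subunit of a volume-regulated anion channel, had 3. Among those with 2 were Chd3, E2f1, Hdac5, Rcor2, Rgs3, Srcin1, Ston2 and Tcf4. Some of these were neighbours, and 428 of the 440 sites were left when sites within 1 kb were joined. The closest midpoints were 1535 bp apart at E2f1, 2099 bp at Srcin1 and 2161 bp at Lrrc8d. They were 30915 bp apart at Ston2 and 95226 bp at Tcf4. Chd3, Hdac5 and Rcor2 encode parts of repressor or chromatin complexes. The pair at E2f1, a cell cycle transcription factor, had midpoints 741 bp downstream and 622 bp upstream of the nearest TSS, with CpG ratios of 0.369 and 0.466 at the sites and 0.986 and 0.950 at the TSS. Its sites stood on either side of a CpG-rich start.

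The exact GLI core was more frequent in the CpG-poor sites than beside them. At least 1 core was present in 42 of 440 sites (9.55%, 7.14 to 12.7) while 18 of 880 flanks had one (2.05%). The share was 4.67 times as high in the sites (Fisher's exact test, one-sided, p = 3.06e-09). It was 1.63 times as high with 1 mismatch allowed (exact p = 1.77e-22), and 7 times as high when each site was paired with its upstream flank alone (exact sign test, one-sided, p = 8.53e-09). The density was 36.2 cores per Mb in the sites and 7.58 in the flanks. Base composition moved with this result, since the median GC content was 53.3% in the sites and 46.6% in the flanks. The core read backwards, ACCCACCAG, has the same bases, and was found in 33 sites (7.5%) and 33 flanks (3.75%), a ratio of 2 (exact p = 0.00300). This control word was chosen after the data were seen, and the difference between the 2 ratios was not tested.

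Pitrm1, chr13:6548591-6548619, minus strand: ccacactcagGACCACCCActctctctgg
Sox6, chr7:115860940-115860968, plus strand: tccatatgtgGACCACCCAgaatctagaa
Dixdc1, chr9:50727330-50727358, plus strand: ccctcatgtgGACCACCCAcagtctccta

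These are 3 of the cores within 500 bp of a site midpoint, each with 10 bases on both sides and the core in capitals, shown because they are direct matches to the GLI recognition sequence. The core at Pitrm1, a mitochondrial peptidase gene, lay 103 bp from the midpoint and 454 bp after the TSS. Dixdc1, of Wnt signaling, had it 213 bp from the midpoint, and Sox6, a transcription factor of neural progenitors and interneurons, 249 bp from it, all in introns. Others within 500 bp of the midpoint included those at Gm11541, 2410015M20Rik, Lrrc52, Fibcd1, Slc31a2, Podxl2, Dennd4b, Cbfa2t3, Extl3, Zfp30, Uaca, Tcf20 and Ank2.

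For the 43 cores in these 42 sites no preference for a strand or for the middle of the site passed a test. The core was on the strand of the gene in 22 of 43 (51.2%, two-sided exact binomial test, p = 1). The middle of the 3 equal parts of a site held 18 of 43 (41.9%, one-sided exact binomial test, p = 0.153). Within 100 bp of the midpoint there were 5. Most cores were in introns (22) or between genes (10), with 6 in coding exons and 5 in UTRs, and 23 of 43 lay within 500 bp of the TSS. Rbm15b, an RNA-binding protein gene, was the only one with 2 cores in a site.

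**Figure D3:**
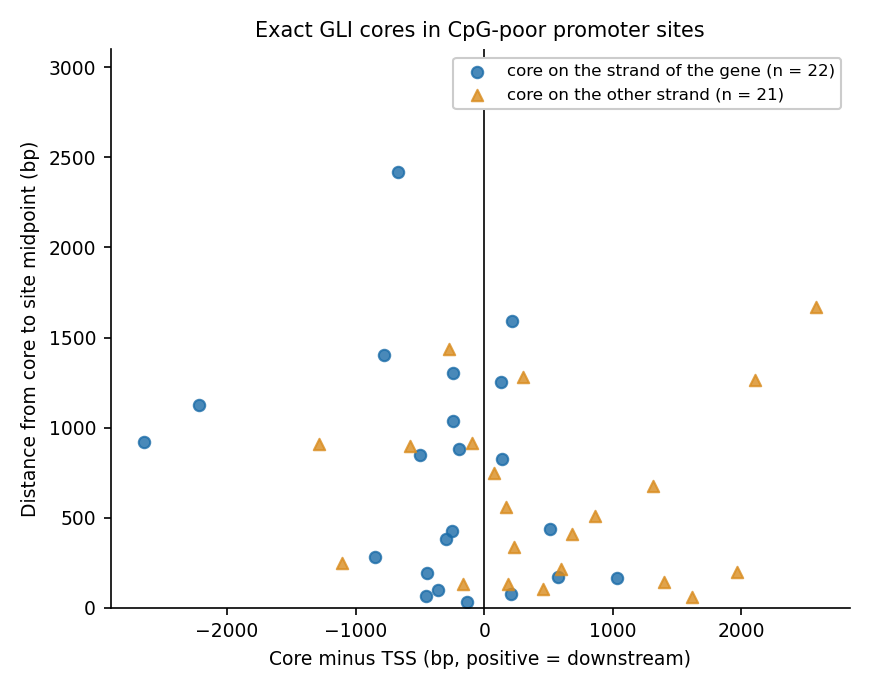
The 43 exact GLI cores in CpG-poor sites, by distance from the TSS (x axis, bp, positive downstream) and from the site midpoint (y axis, bp). Circles are the 22 cores on the strand of the gene and triangles the 21 on the other strand, and both spread over the sites, with 5 cores within 100 bp of the midpoint.

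The share of sites with a core did not differ from that of CpG-rich sites at the threshold, and this depended on how the core was searched. It was 52 of 645 in CpG-rich sites (8.06%, 6.2 to 10.4; odds ratio 1.20, two-sided Fisher's exact test, adjusted exact p = 0.568), with 37.5 cores per Mb. With 1 mismatch allowed the odds ratio was 1.95 (unadjusted exact p = 5.04e-07), and in the central 200 and 1000 bp it was 0.977 and 0.929. The CpG-poor sites were below the sites over 2 kb from every coding TSS, where 362 of 2508 held a core (14.4%, 13.1 to 15.9; odds ratio 0.626, adjusted exact p = 0.00801) at 81.3 per Mb, although the CpG-poor sites were wider. The core was present in 26 of 243 sites with a CpG-poor start (10.7%) and 16 of 197 with a CpG-rich start (8.12%), which did not pass the test (adjusted exact p = 0.520). Of the 72 sites without an island-like window 10 held it (13.9%), against 32 of 368 with one (8.70%, adjusted exact p = 0.188). For scale, 1.75% of all 52101 coding starts held a core within 1 kb.

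In a 31-gene list of the Shh pathway, 5 genes had a CpG-poor site within 2 kb of a coding TSS (16.1%). Of all 20722 protein-coding genes on these chromosomes, 2.1% did. CpG-rich sites were found at 2 of the 31 genes (6.45%), and at 649 of all 20722. The 5 included Gli1, a GLI activator and direct target of the pathway, Evc, Evc2 and the ciliary kinesin gene Kif7, which controls GLI processing. None of these 4 sites had an exact core. Their matches to the core with 1 mismatch that lay nearest to the midpoint are shown with the matching 9 bases in capitals. With 1 mismatch allowed, the share over all sites was 1.63 times that of flanks, against 4.67 for the exact core. Whether Gli3 binds at these matches was not tested.

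Gli1, chr10:127340695-127340723, minus strand: ctctggctcaGACCACCCTgcctgccctt
Evc2, chr5:37339367-37339395, plus strand: ctgctagtcaGCCCACCCAccactcttaa
Kif7, chr7:79715381-79715409, minus strand: gagaagccggGACCACACAcagctccaga

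Positions are counted from 1 at the 5′ end of the core, with the base of the core given first. Gli1 differed by A9T, Evc2 by A2C and Kif7 by C7A, and Evc had no match with up to 1 mismatch. The Gli1 site was 3683 bp wide and held 6 such matches, none of them exact, the nearest 122 bp from the midpoint. The sites at Evc and Evc2 were 1933 and 2114 bp wide, with midpoints 637 and 689 bp after the TSS in an intron of each gene. These genes are transcribed away from each other, and each counted as one-way because the start of the other was over 2 kb from its midpoint. Kif7 had its midpoint 640 bp after the TSS.

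Among 39 genes of radial glia and progenitors, 5 had a CpG-poor site (12.8%). Nes, the intermediate filament of neural stem cells, had a site of 5219 bp with its midpoint 1843 bp after the TSS. The Notch1 receptor gene had one of 4804 bp, with the midpoint 1502 bp after an internal start. Hes6 and Id3, a Hes family factor and an inhibitor of bHLH factors, had sites of 4015 and 3222 bp, and Nfix one of 4935 bp. Axon guidance and adhesion genes had 3 of 52, Chl1, Ephb3 and Robo2, with an exact core at Chl1. Wnt, BMP and FGF signaling had 3 of 64, Dkk3, Fzd9 and Smad3, and projection neuron genes 1 of 37, Cux2. No gene of the oligodendrocyte and glial switch list (26), the interneuron and ventral fate list (38), the microglia and blood list (20) or the housekeeping list (16) had one, while the endothelial and mural list had 1 of 29, the potassium channel gene Kcnj8. With 2.1% of all genes having a site, none in lists this short says little. For CpG-rich sites the radial glia and progenitor list had the same share, 5 of 39 (12.8%). The housekeeping list had 3 of 16 (18.8%) there, the interneuron list 2 of 38, the microglia list 1 of 20 and the glial switch list 0 of 26. The background for these CpG-rich counts is 649 of all 20722 protein-coding genes, more than for CpG-poor sites.

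Gene families sorted by symbol gave 5 of 20 semaphorins, secreted or membrane guidance proteins, as the highest share (25%). They were Sema3b, Sema4a, Sema4b, Sema6d and Sema7a, with site widths of 5404, 1966, 3752, 1518 and 3220 bp and an exact core at Sema4b. For CpG-rich sites the semaphorins had 2 of 20 (10%). Kinesins and tubulins had 5 of 55 (9.09%), Kif13a, Kif22, Kif3c, Kif7 and Tuba1a. Solute carriers had 10 of 358 (2.79%) and Zfp zinc finger genes 11 of 385 (2.86%), near the share of all genes. Other families held 2 of 92 potassium channel genes, 1 of 43 collagen genes, 1 of 94 cadherin and protocadherin genes, 1 of 18 Sox genes, 1 of 41 Fox genes and 1 of 64 orphan receptor genes. No site was found for 87 TGF-beta and interleukin ligand and receptor genes, 1126 olfactory receptor, 110 keratin or 39 Hox genes. Of the 3 genes taken in by the ribosomal protein pattern, Rps6ka4 and Rps6kb2 encode kinases and Rpl27 a ribosomal protein. The lists hold few genes each, and the shares are counts without a test.

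**Figure D4:**
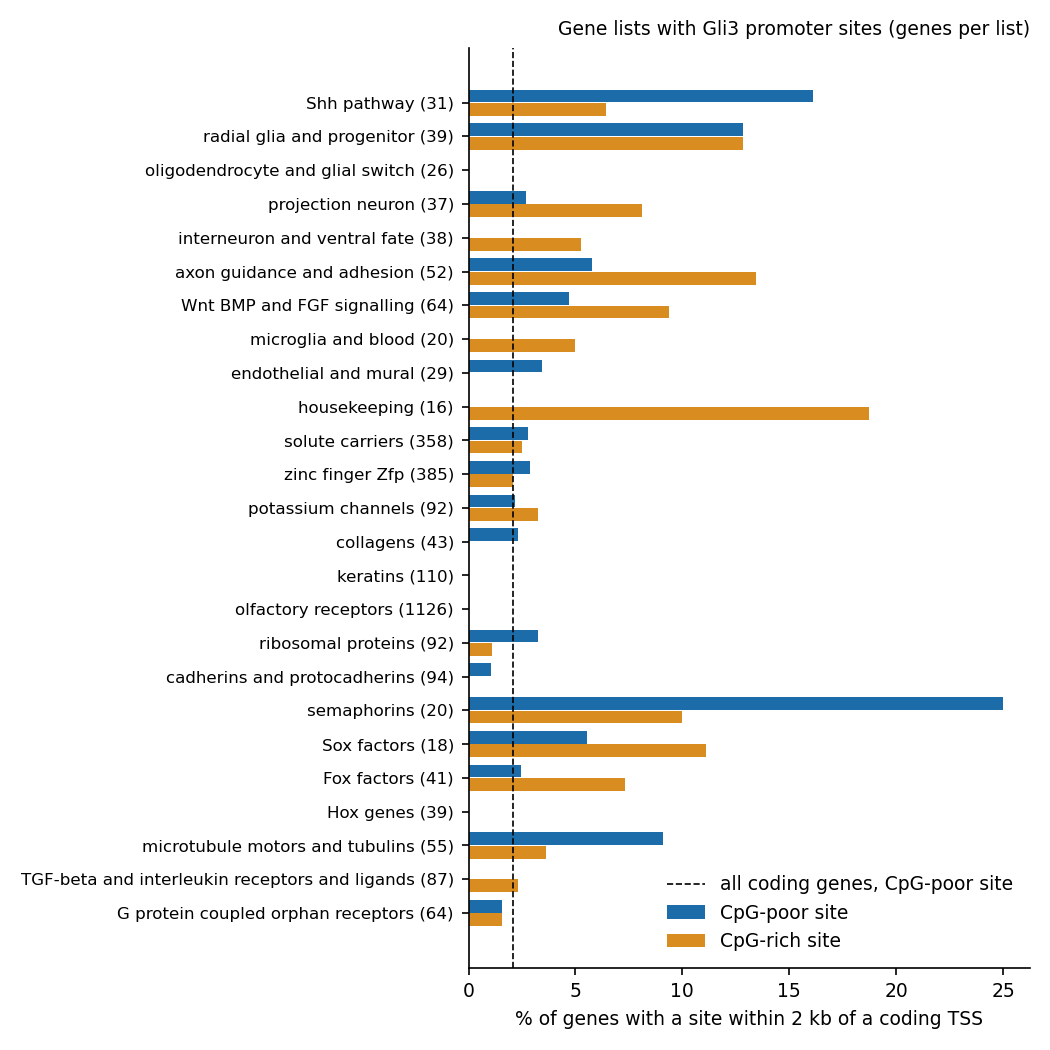
Share of the genes of each list (x axis, %, number of genes in brackets) with a CpG-poor (blue) or CpG-rich (orange) site within 2 kb of a coding TSS. The dashed line is the 2.1% of all coding genes with a CpG-poor site, while 649 of 20722 had a CpG-rich site. The Shh pathway (16.1%) and semaphorin (25%) lists reach farthest beyond the line for CpG-poor sites. Their shares for CpG-rich sites were 6.45% and 10%.

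Sites were found at few of the CpG-poor starts. Of 13030 protein-coding genes with a CpG-poor one-way coding TSS, 252 (1.93%) had one of the 440 sites within 2 kb of it. Genes with a CpG-poor site numbered 435 and genes with a CpG-rich site 649, and 9 genes had both. Each set is a small part of all 20722 protein-coding genes, 2.1% for the CpG-poor sites. A small overlap therefore says little about the sites, and it was not tested.

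A TATA box was about as rare at these promoters as at all coding starts. The word TATAAA stood 40 to 20 bases before the TSS at 6 of 440 sites (1.36%), at 6 of 645 CpG-rich sites (0.930%, adjusted exact p = 0.631) and at 1.41% of all coding starts. Among all CpG-poor coding starts the share was 2.07%. Of the 440 sites, it stood at 2 of 243 with a CpG-poor start and 4 of 197 with a CpG-rich start. These 6 starts were those of Hes6, Gm11541, Lipo3, Rnd3, Abca1 and Cemip. Those of Hes6 and of Abca1, a cholesterol transporter, are shown as the 60 bases before the TSS, with the box in capitals.

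Hes6, chr1:91413223-91413282, minus strand: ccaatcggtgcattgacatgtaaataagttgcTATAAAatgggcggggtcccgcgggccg
Abca1, chr4:53159896-53159955, minus strand: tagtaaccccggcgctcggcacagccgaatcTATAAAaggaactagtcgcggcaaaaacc

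Of 18 motif words, 4 were more frequent in the sites than in the flanks (one-sided Fisher's exact test, Benjamini-Hochberg adjusted over the 18). These were the 9-base GLI core (adjusted exact p = 1.84e-08), its first 8 bases GACCACCC in 87 sites (19.8%) and 57 flanks (6.48%, adjusted exact p = 1.29e-11), the SP word GGGCGGGG in 207 sites (47.0%) and 135 flanks (15.3%, adjusted exact p = 1.12e-32) and the ETS word CCGGAAGT in 33 sites (7.5%) and 27 flanks (3.07%, adjusted exact p = 0.00150). The shorter GLI word contains no more than the first bases of the longer, so the 2 are not separate. The SP and ETS words hold a CpG, and the flanks were poorer in CpG than the sites (median ratio 0.202 against 0.443 over whole regions). The matches nearest a midpoint were at Gm11541 for the core, Wbp1l for its first 8 bases, Slc8a2 for SP and Zscan12 for ETS. Words of E-box, homeobox, SOX, POU, AP-1, TEAD and TCF/LEF factors did not pass. In the 1000 bp around all coding starts the 9-base core was found in 0.881% and the SP word in 33.2%, and in the central 1000 bp of the sites in 4.77% and 18.9%.

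Against the CpG-rich sites the order of several words turned. The SP word was in 207 of 440 CpG-poor and 432 of 645 CpG-rich sites (66.98%), which is given without a test because the word holds a CpG and the groups were divided by CpG. The E-box CAGATG was in 340 CpG-poor sites (77.3%) and 370 CpG-rich sites (57.4%, odds ratio 2.53, two-sided Fisher's exact test, adjusted p = 1.32e-10 over the 18 words). The SOX word ACAAAG was in 80.7% and 66.8% (adjusted exact p = 1.85e-06). Neither word was more frequent than in the flanks of the CpG-poor sites, at 81.4% for the E-box and 85.1% for SOX. All words of the list without a CpG had a higher share in CpG-poor than in CpG-rich sites. A CA repeat was among them, in 27.0% and 12.1% (odds ratio 2.69). The CpG-poor sites were wider, and their length and composition moved with these shares, whose part in the result was not tested.

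**Figure D5:**
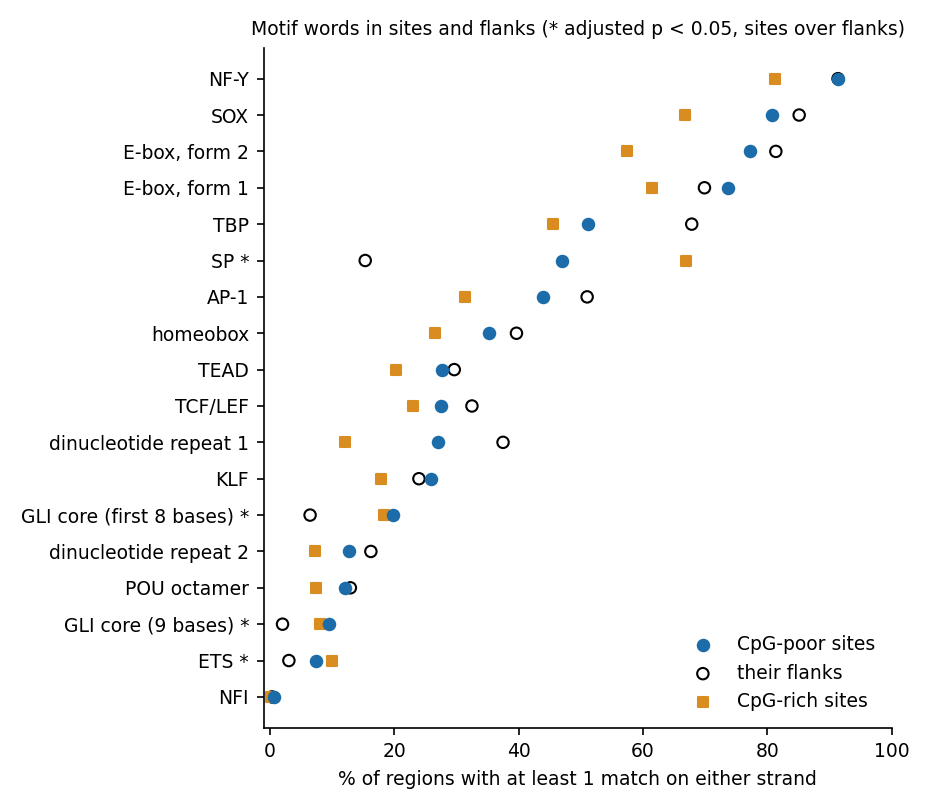
Share of regions (x axis, %) with at least 1 match of each of 18 motif words on either strand, for CpG-poor sites (blue), their flanks (open) and CpG-rich sites (orange). TBP and NF-Y are the TATA and CCAAT words, and asterisks mark the 4 words more frequent in CpG-poor sites than in flanks.

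Among all words of 8 bases the search was dominated by C and G. Of 32896 words, each counted with its reverse complement, 3903 (11.9%) were more frequent in the sites than in the flanks at an adjusted p below 0.05, and 3323 of these hold a CpG. In the central 1000 bp of the sites, where the rule kept the ratio below 0.6, 921 words passed and 720 held one. The flanks were poorer in CpG than the sites, with a median ratio of 0.202 against 0.443, each over the whole region. How far the words with a CpG follow from this was not tested. There the first was CCCGCCCC, in 96 of 440 sites (21.8%) and 48 of 880 flanks (5.45%), and the GLI word GACCACCC ranked 6, in 53 sites (12.05%) and 20 flanks (2.27%, adjusted exact p = 7.48e-09). Words that share part of it were close by: CCACCCAG ranked 5, with 94 sites (21.4%) and 66 flanks (7.5%), and GGCCACCC ranked 7, with 64 sites (14.5%) and 31 flanks (3.52%). Overlapping words share bases and are not independent.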

How the data were processed

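ChIP-seq was performed on E15 wild-type mouse cortices, with 3 Gli3 and 3 input libraries. The authors deposited 1 list of peak positions, kept after an analysis of irreproducible discovery rate, with chromosome, start, end and name; per the labels Bowtie2, SAMtools and MACS2 were used with mm10, and their versions and thresholds are not given in the sources used here. The width and number of sites depend on those settings, and the pooled list has no replicate error and no known depth.

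Sites were read with GENCODE M21 starts and the GRCm38 genome, the assembly of mm10, on chromosomes 1 to 19 (pysam 0.24.0). Flanks had the length of the site and lay on both sides of it. Motifs were searched on both strands and a region counted once. Shares were compared by Fisher's exact test (scipy 1.17.1) with Wilson intervals, which cover counting error only, and Benjamini-Hochberg adjustment. The word search was tested on simulated sequence. Promoter sites were named by the nearest coding TSS. Genes were named if a core lay within 500 bp of the midpoint (at most 20), if they were in a list or had several sites, or if the site was widest, narrowest, next to the threshold or nearest to a motif; Ski and the 3 cores printed were picked after their values were seen, as were the splits by start and by island-like window. The members, lists and tests were chosen with earlier results of these data known. Some genes that the naming rule takes in are not reported here.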

Additional observations from a re-analysis of the deposited data

How the results depend on the processing

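No paired analysis of the libraries was possible because the 3 Gli3 libraries were joined into 1 list, and for the same reason no library could be left out. Of 113 values under other settings, 96 kept the direction and side of the threshold, or the value, although some moved by over 1.5 times: the core against flanks to a ratio of 1.63 with 1 mismatch allowed, the odds ratio of a TSS within 500 bp to 0.421 with CpG over the whole site and 0.293 within 1 kb, and that of width to 3.15 with CpG over the whole site. The share of sites with a CpG-rich TSS moved from 44.8% to 50.3% with a CpG window of 500 bp, 52.6% with the whole site, 36.7% with a TSS within 1 kb, 50.1% with basic transcripts only and 35.8% with all transcripts of protein-coding genes. The share of genes with a CpG-poor promoter that had a site was 1.37% at a CpG threshold of 0.5 and 1.53% within 1 kb, and 2558 words passed at 0.5. The odds ratio of a GLI core against CpG-rich sites was 0.977 in the central 200 bp (exact p = 1), 0.929 in the central 1000 bp (exact p = 0.887) and 1.95 with 1 mismatch allowed (exact p = 5.04e-07). In the central 200 bp, 4 of 440 sites and 0 of 880 flanks held the core (exact p = 0.0122, with no ratio), and 2 of 18 motifs passed. For a site that contains the TSS the odds ratio was 0.68 with CpG over the whole site (exact p = 0.0688) and 1.05 within 1 kb (exact p = 1). For a midpoint downstream it was 0.733 both with a window of 500 bp (exact p = 0.0129) and within 1 kb (exact p = 0.0302), and for another site within 50 kb it was 1.36 at a threshold of 0.5 (exact p = 0.0376). The causes were not tested.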
